A study of Mus musculus with 4 samples.

Results

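Cells with pericyte marker RNA were described in popliteal vessels of the mouse, the vessels that drain and supply the lower hind limb. The members were selected on their RNA counts alone: at least 3 UMIs (unique molecular identifiers, 1 per captured RNA molecule) of Rgs5, at least 1 UMI of at least 2 of the 4 genes Kcnj8, Abcc9, Higd1b and Vtn, and no more than 1 of 6 endothelial or fibroblast genes (Flt1, Ptprb, Emcn, Prox1, Pdgfra, Pi16) detected. Of 3435 barcodes kept after quality limits, 148 were members, or 4.31% (95% Clopper-Pearson interval 3.65 to 5.04%).

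The mice were adults of 1 strain in all libraries. They carried a Wt1 allele that makes a fusion of EGFP and Cre recombinase (WT1GFPCre) and the Ai9 tdTomato reporter, which Cre switches on for good in a cell and its descendants. Evans blue dye at 4% was injected into the footpad before dissection in all animals. PLV replicates 1 and 2 held popliteal lymphatic vessels, each from a separate pool of 2 mice, and were digested for 30 minutes with collagenase I, Dispase II, DNAse and Liberase. The mixed library held popliteal lymphatic vessels and blood vessels of 1 pool of 2 mice, digested for 60 minutes with collagenase I and Dispase II. No untreated or Cre-free group was part of the data used here, and the hashtags of the mixed library were not used to split it, so its members cannot be assigned to a vessel. Vessel, digestion, run and mice differed together between the PLV and mixed libraries and cannot be told apart.

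Pericytes and vascular smooth muscle cells are the mural cells of blood vessels. Pericytes sit within the basement membrane of capillaries and small venules, are recruited by PDGF-B through the receptor PDGFRB, and carry potassium channels gated by ATP, built from Kcnj8 (the pore Kir6.1) and Abcc9 (the sulphonylurea receptor SUR2), which set their membrane potential. Smooth muscle cells of arteries, veins and collecting lymphatic vessels express a contractile programme led by Acta2 and Myh11. Both kinds grade into each other along the vascular tree, and Rgs5, a regulator that shortens signalling through G proteins, is found in both.

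PLV replicate 1 held 1919 kept cells with a median of 3368 UMIs, PLV replicate 2 held 519 with 4901, and the mixed library held 997 with 6223. The members were 55 cells of the first (2.87% of kept cells, interval 2.17 to 3.71%), 25 of the second (4.82%, 3.14 to 7.03%) and 68 of the third (6.82%, 5.33 to 8.57%). Values in groups of 3 are given in this order throughout: PLV replicate 1, PLV replicate 2, mixed. The order of these shares is also the order of the median depths, and the rule counts UMIs. When every cell was thinned to 1500 UMIs before the rule was applied, the shares were 1.44%, 1.73% and 1.58%, with intervals that overlap. No barcode was shared between libraries, and none of the 148 members was predicted to be a doublet. The prediction flagged only 13, 3 and 3 of all kept cells in the 3 libraries, although the expected rate was set at 0.06. It therefore cannot decide whether members are doublets.

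At the edges of the rule, 25 members had exactly 3 Rgs5 UMIs and 21 cells failed with 2. Overlapping with these, 72 members had UMIs of exactly 2 of the 4 supporting genes, and 62 cells failed with 1. Abcc9 was detected in 132 members, Vtn in 112, Kcnj8 in 75 and Higd1b in 70. In PLV replicate 1 the cells with 3 Rgs5 UMIs held Myh11 at 6170 CPM (a gene's UMIs scaled to a total of 1000000 UMIs over the summed cells) and those with 2 held 5155 CPM. The order was the opposite in PLV replicate 2 (5373 and 6231 CPM) and the same in the mixed library (7044 and 6203 CPM). Cells on both sides of the Rgs5 limit thus held Myh11, which the rule does not ask about, at muscle-like levels.

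The label of pericytes was checked against muscle markers, which many members also hold. A gate of at least 3 Myh11 UMIs and at least 1 UMI of at least 2 of Cnn1, Lmod1, Synpo2 and Actg2, all genes of the smooth muscle contractile apparatus, was passed by 95 of the 148 members (64.2%). By library it was passed by 30 of 55, 14 of 25 and 51 of 68. The remaining 53 members (25, 11 and 17) did not pass it. The gate sets a limit on a continuous range: 74 members had 10 or more Myh11 UMIs, 38 had 3 to 9, 17 had 1 or 2 and 19 had 0, and free RNA can add Myh11 UMIs. The members are therefore called Rgs5-selected cells, and values are given for those inside and those outside the muscle gate. The cells inside the gate were not alike. In PLV replicate 1, 1 of them had 92 Rgs5 and 13 Myh11 UMIs with 0 of Cnn1 and Actg2. Another had 3 Rgs5, 67 Myh11, 11 Cnn1 and 8 Actg2 UMIs. Summed levels inside the gate are averages over such cells and need not describe an intermediate kind of cell. The cells inside the gate had more UMIs (median 7800 against 3306), and a gate that counts UMIs is easier to pass in a deeper cell. After thinning to 1500 UMIs, 36.0%, 29.2% and 43.9% of members in the 3 libraries passed it. Whether some of the cells inside the gate are 2 cells in 1 droplet was not tested beyond the doublet prediction.

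**Figure D1:**
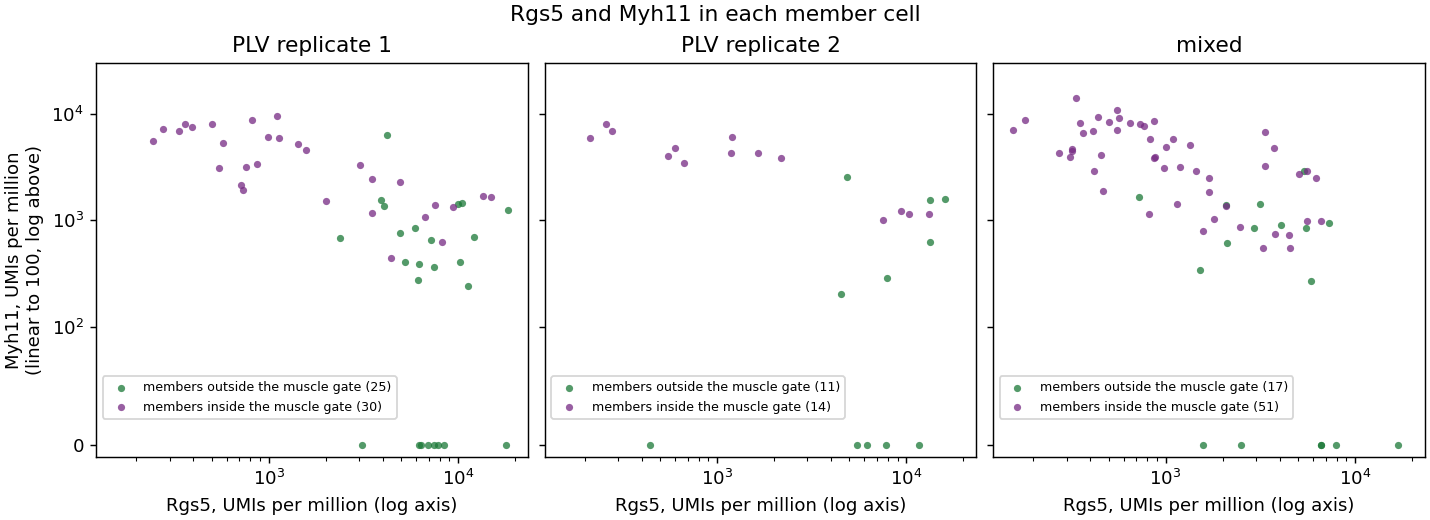
Rgs5 (x axis, CPM, log scale) and Myh11 (y axis, CPM, linear to 100 and log above) in each of the 148 members, by library. Green points are the 53 members outside the muscle gate and purple points the 95 inside it. Members with more Rgs5 tend to have less Myh11 in each library.

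Within single members more Rgs5 tended to go with less Myh11, as the plot of single members shows. Rgs5 UMIs outnumbered Myh11 UMIs in 51 of 53 members outside the gate and in 29 of 95 inside it, a count chosen after the values were seen. Outside the gate, Rgs5 ranged from 2372 to 18388 CPM per cell in PLV replicate 1, with a median of 6914. Inside the gate the median was 1119 CPM, although the highest cell reached 14934. In the other libraries the cells outside the gate started lower, at 441 CPM (median 7797, highest 16068) and 728 CPM (median 4092, highest 16807). Inside the gate the medians there were 1186 and 877 CPM. The Myh11 medians in the 3 libraries were 402, 204 and 605 CPM outside the gate and 3232, 4168 and 3958 CPM inside it. The sets overlap for Rgs5 in both directions: cells inside the gate reach above the medians outside it, and cells outside it fall below the medians inside it in PLV replicate 2 and the mixed library. These are the genes that defined both sets, so the contrast is a description.

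Muscle reference cells, kept cells that pass the muscle gate and are not members, numbered 418, 98 and 298, and gave the comparison nearest in kind. Summed over members, Rgs5 stood at 3860.2, 4208 and 2125 CPM. In the muscle reference cells it stood at 529, 221 and 144 CPM. In blood endothelium it was higher than in those cells in every library, at 637, 259.7 and 369 CPM. Kcnj8 outside the gate was at 441, 342 and 359 CPM, inside it at 70.1, 70.5 and 67.4 CPM, and in muscle reference cells at 20.3, 15.5 and 30.4 CPM. Abcc9, its partner subunit, was at 959.6, 1025 and 417 CPM outside the gate, 403, 194 and 276 CPM inside, and 147, 153 and 167 CPM in muscle reference cells. The rule asks for UMIs of these genes, and the reference holds cells that failed it. These include any cells with at least 3 Rgs5 UMIs but too few supporting genes that passed the muscle gate. A required UMI also weighs more in the shallower cells outside the gate. For these reasons the order of the classes was partly fixed by the selection. Vtn, which encodes the adhesion protein vitronectin, did not separate the members by the gate, with 389, 221 and 267 CPM outside and 263, 308 and 211 CPM inside the gate.

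The sums were then compared between members and muscle reference cells across all genes with edgeR's quasi-likelihood test, with the library as a block. The rule chose the members on this contrast, so the calls below are given as a description and not as support for the choice. Fold changes are on a log2 scale, over 3 libraries. The standard error (SE) beside each was worked back from the fold change and its test statistic, so it is approximate. The word "passed" means a Benjamini-Hochberg adjusted p under 0.05 over all tested genes. Of 8105 genes tested, 381 (4.7%) passed as higher in members and 429 (5.29%) as lower. For the 53 members outside the gate, 371 of 6804 (5.45%) passed as higher and 631 (9.27%) as lower. Among the tested genes, 104 had 0 UMIs outside the gate and entered the test only through the reference, and 100 of them were called. Of the 810 genes called with all members, 627 (77.4%) were also called outside the gate, where they make up 62.6% of the 1002 calls, and none of the 627 had the opposite sign.

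**Figure D2:**
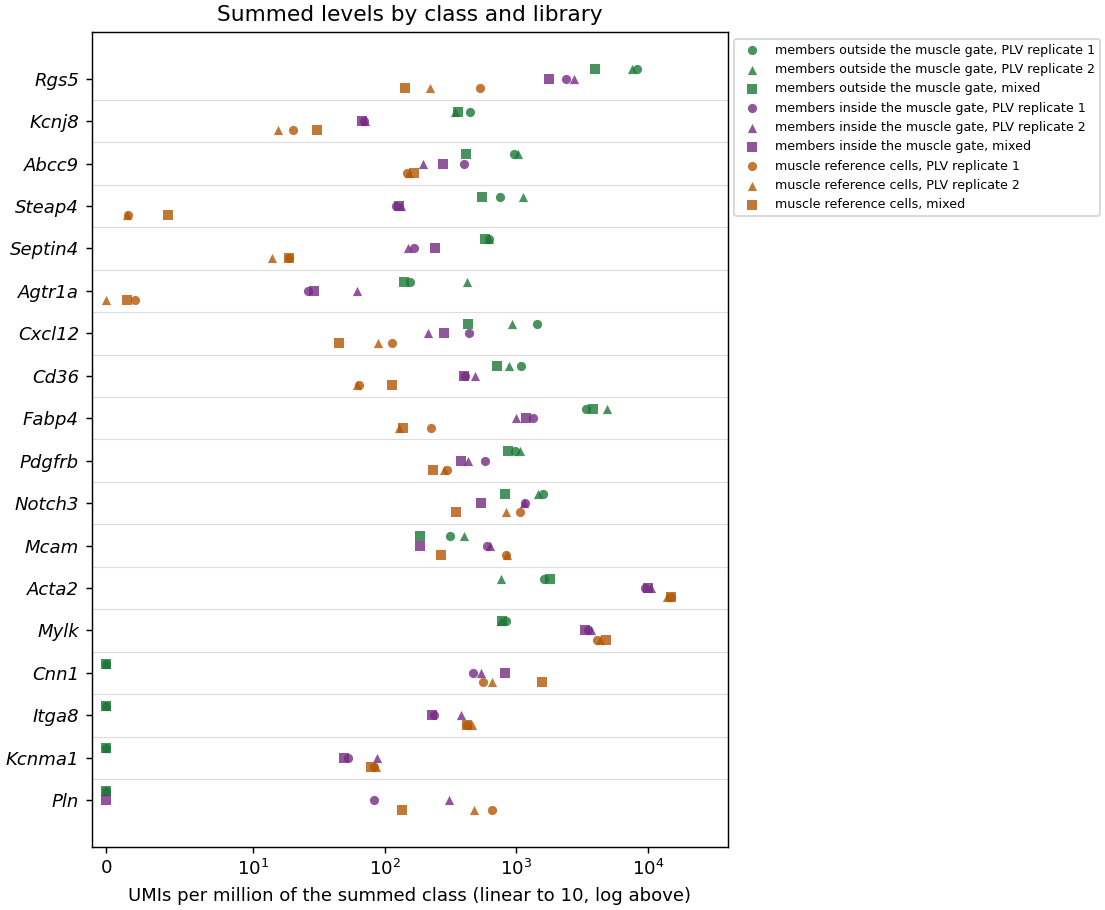
Levels of 18 genes (x axis, CPM of the summed class, linear to 10 and log above) in members outside the muscle gate (green), members inside it (purple) and muscle reference cells (orange). Circles are PLV replicate 1, triangles PLV replicate 2 and squares the mixed library; Steap4, Septin4 and Agtr1a order the 3 classes the same way in every library, and Cnn1, Itga8, Kcnma1 and Pln are at 0 outside the gate.

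Among genes that other studies use for pericytes but that the rule did not use, 31 of 34 could be tested. With all members 10 passed as higher and 6 as lower, and the median log2 fold change was 0.15, against -0.00 over all tested genes. The shares were 32.3% and 19.4%, against 4.7% and 5.29% of all tested genes. Without PLV replicate 1 the counts were 6 and 3 of 28, and without PLV replicate 2 they were 8 and 3 of 32. Outside the gate 12 passed as higher and 6 as lower, with a median of 0.31 against -0.09. Those shares were 38.7% and 19.4%, against 5.45% and 9.27% of all tested genes. Of the 6 lower genes, 1 had 0 UMIs outside the gate and could be tested only because the reference expresses it. Of the 30 genes above 0, 5 passed as lower. Outside the gate the lower count was 2 of 27 without PLV replicate 1 and 3 of 31 with DESeq2.

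The largest differences of that list were in Steap4, Agtr1a and Septin4. Steap4, a metalloreductase of the plasma membrane, stood at 752, 1125 and 545 CPM outside the gate, 123, 132 and 128 CPM inside it, and 1.49, 1.41 and 4.22 CPM in muscle reference cells. No class overlapped another in any library. The log2 fold change over muscle reference cells was 6.46 (SE 0.32) for all members and 7.79 (SE 0.38) outside the gate. At least 1 Steap4 UMI was found in 39 of 53 cells outside the gate, 30 of 95 inside, and 9 of 814 muscle reference cells. After thinning to 1500 UMIs the shares were 60.9%, 16% and 0.78%, so the order did not follow the order of depths. Steap4 was not limited to members: fibroblasts held 172, 421 and 167 CPM and blood endothelium 66.5, 60.4 and 43.5 CPM.

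Agtr1a, the type 1 receptor for angiotensin II, was at 156, 422 and 139 CPM outside the gate and at 26.3, 61.7 and 29.2 CPM inside it. Muscle reference cells had 1.98, 0 and 1.41 CPM, from 7 UMIs in all, so the fold rests on few reference molecules. Septin4, a GTP-binding filament protein listed in the files under its older symbol Sept4, was at 622, 623 and 579.5 CPM outside the gate, 166, 149.8 and 240.4 CPM inside, and 18.8, 14.1 and 18.7 CPM in muscle reference cells. The fold changes for all members were 5.40 (SE 0.48) for Agtr1a and 3.91 (SE 0.20) for Septin4.

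Pdgfrb, the receptor through which pericytes are recruited, was higher by a smaller amount. It was at 973, 1065 and 869 CPM outside the gate, 574, 432 and 379.7 CPM inside, and 296, 283 and 234 CPM in muscle reference cells (log2 fold change 0.99, SE 0.14, for all members). Ebf1, a transcription factor of mural and stromal cells, had a fold change of 1.00 (SE 0.13). Notch3, the Notch receptor of mural cells, passed outside the gate with 0.63 (SE 0.21), and for all members its value was 0.41. Its target Heyl passed outside the gate as well, at 1.88 (SE 0.47). Not all genes of the list were higher. Cspg4 (the proteoglycan NG2), often used to stain pericytes, had a fold change of -1.54 (SE 0.31) for all members (not called without PLV replicate 1), with 26.2, 135 and 26.3 CPM against 176, 179.9 and 71.2 CPM. Mcam (CD146), an adhesion molecule of the vessel wall, had one of -0.70 (SE 0.14).

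Contractile genes were lower in members. Of 23 tested genes that neither gate used, 20 passed as lower with all members and 0 as higher, and the median log2 fold change was -0.93. The lower share was 87.0%, against 5.29% of all tested genes. Outside the gate 21 passed as lower and 0 as higher, with a median of -2.77, or -2.74 with 3 genes that had 0 UMIs set at their bound. The lower share there was 91.3%, against 9.27% of all tested genes. That set of cells is defined by few muscle transcripts, so this direction was to some degree chosen. The level of Acta2, smooth muscle actin, was 1608, 764 and 1785 CPM outside the gate, 9399.6, 10557 and 9924 CPM inside, and 14720.1, 13769.8 and 14900.3 CPM in muscle reference cells. Mylk, the kinase that starts contraction by phosphorylating myosin, was at 829.9, 764 and 777 CPM, then 3513, 3666 and 3323 CPM, then 4106, 4283 and 4781 CPM. The sum of the cells inside the gate thus stood nearer to muscle reference cells than to the other members in both genes. Droplets of the mixed library with under 50 UMIs, which hold free RNA, contained Acta2 at 2841 CPM and Myh11 at 1334 CPM. Both exceed the levels outside the gate in that library (1785 and 823 CPM). A CPM is a share and does not give the amount of free RNA in a cell's droplet. The part of free RNA in the levels of these 2 genes was therefore not tested.

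Promoters were read where the groups of genes differed. Notch signals act through RBPJ, whose core binding letters are TGGGAA, read as TTCCCA along the other strand. RefSeq windows on GRCm38.p6 from 250 bases before to 50 after each start were searched on both strands. The motif was present in at least 1 window of 10 of 23 matched pericyte genes outside the rule, 9 of 24 matched contractile genes, and 28.3% of all 27025 genes with a window. Genes differ in their number of windows: counted by window the motif was in 10 of 34 (29.4%), 9 of 30 (30%) and 25.6% of all 32851. A match is not a binding site. A stretch around it is shown for Steap4, the pericyte gene with the largest fold, and for Acta2, a contractile gene. The motif is in capitals. Steap4 lies at chr5:7960290-7960395 on the plus strand and Acta2 at chr19:34255374-34255450 on the minus strand, both 5′ to 3′ along the gene and ending at or before its start.
Steap4: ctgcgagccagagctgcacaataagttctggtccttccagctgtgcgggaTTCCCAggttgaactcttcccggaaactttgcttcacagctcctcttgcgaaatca
Acta2: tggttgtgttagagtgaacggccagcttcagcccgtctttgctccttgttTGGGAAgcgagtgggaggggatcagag

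Several muscle genes that no gate used had no UMI in any of the 53 cells outside the gate, which allows a share of up to 5.66% of cells with a UMI. They are named for that 0, and the 53 cells are those that failed a smooth muscle gate. The direction of these genes was thus partly chosen, and the fold bounds are a description. Itga8, an integrin subunit of smooth muscle, was found in 57 of 95 members inside the gate and in 663 of 814 muscle reference cells. Against a floor of 3 counts over the pooled class (14.1 CPM), it was at least 30.3-fold lower outside the gate than in muscle reference cells. Pln, which encodes phospholamban, the brake on the calcium pump of the sarcoplasmic reticulum, was at least 28.3-fold lower. Pln also differed inside the gate, with 83.2, 308 and 0 CPM against 650.3, 477 and 134 CPM in muscle reference cells. Its call for all members was lost with DESeq2. Inside the gate 4 of 95 cells had a Pln UMI, against 350 of 814 muscle reference cells. After thinning the shares were 2.13% and 31.2%.

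Of 30 tested channel and gap junction genes, 2 passed as higher and 9 as lower with all members, and 2 and 11 outside the gate. Of the 11, 7 had 0 UMIs outside the gate and could be tested only because the reference expresses them; of the 23 others 4 passed as lower. Without PLV replicate 1 the counts for all members were 3 higher and 5 lower of 29. The share that was higher (6.67%) is near the 4.7% of all tested genes. The share that was lower was 30% against 5.29% with all members, and 36.7% against 9.27% outside the gate. The genes that were higher were Ano1, a chloride channel opened by calcium, and P2rx4, a cation channel opened by ATP, which lost its call with DESeq2. Ano1 stood at 519, 623 and 394 CPM outside the gate, 315, 476 and 285 CPM inside, and 153, 195 and 172 CPM in muscle reference cells (log2 fold change 1.04, SE 0.16, for all members). Ano1 was thus present in all 3 classes and highest outside the gate. Among the lower genes were Kcnma1 and Kcnmb1, the pore and the partner subunit of the large-conductance potassium channel opened by calcium. Kcnma1 lost its call with DESeq2 and without PLV replicate 1 or the mixed library. It had 0 UMIs outside the gate, 52.6, 88.1 and 49.4 CPM inside, and 83.2, 85.8 and 78.7 CPM in muscle reference cells. Ryr2, the calcium release channel of the sarcoplasmic reticulum, likewise had 0 UMIs outside the gate and was at least 7.16-fold lower there. That direction too was partly chosen, as those cells failed a muscle gate. P2rx1, the channel through which sympathetic ATP acts on muscle, had a fold change of -2.91 (SE 0.34) for all members.

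**Figure D3:**
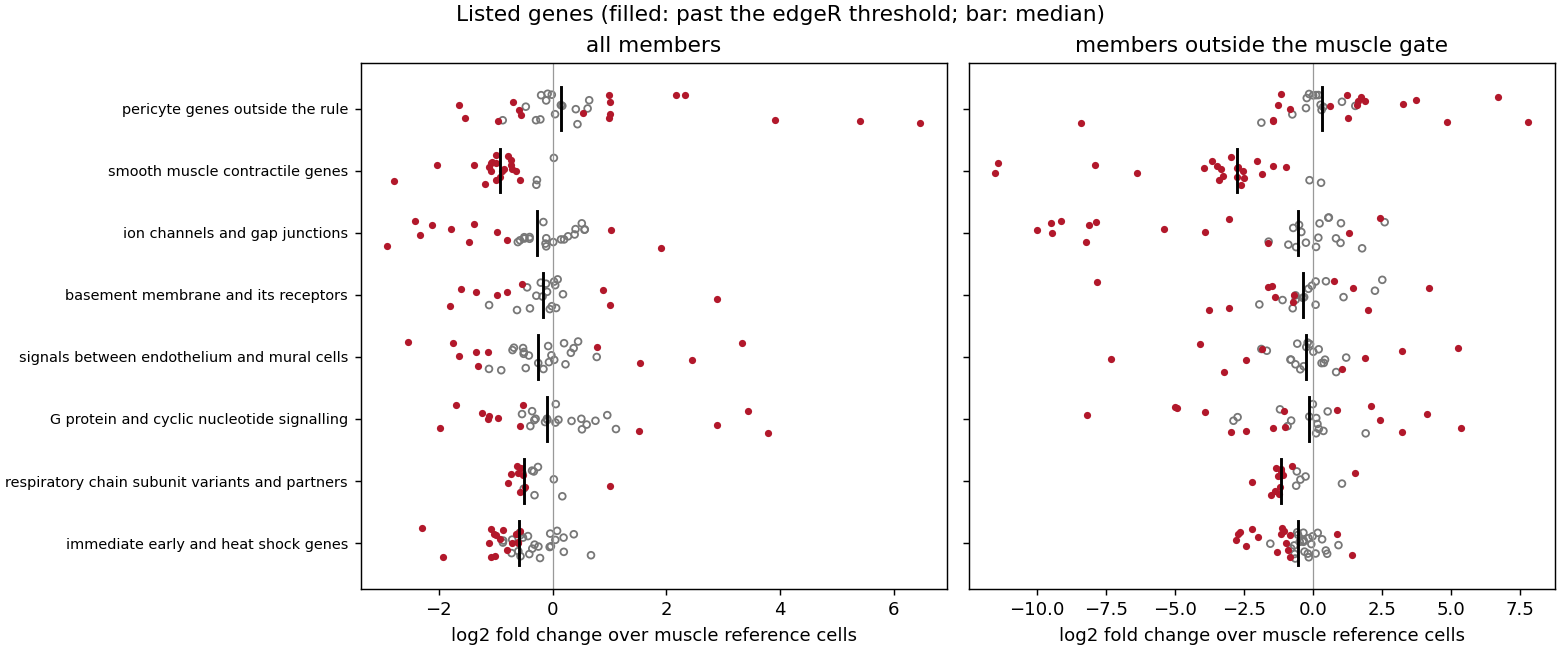
Log2 fold change over muscle reference cells (x axis) of each tested gene in 8 lists, for all members (left) and for members outside the muscle gate (right, on a wider axis). Filled red points passed the edgeR threshold and bars are list medians; values below about -7 are genes with 0 UMIs outside the gate, whose fitted size depends on the prior count; the contractile list has its median at -0.93 on the left and -2.77 on the right.

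Genes for signals to and from endothelium were mixed, with 4 of 31 higher and 6 lower for all members, and 1 and 6 of 32 without PLV replicate 2. For all members these are 12.9% and 19.4%, against 4.7% and 5.29% of all tested genes. Cxcl12, a chemokine, was at 1426, 924 and 429 CPM outside the gate, 438, 211 and 281 CPM inside, and 113, 88.6 and 45.0 CPM in muscle reference cells (log2 fold change 2.46, SE 0.16). It was not limited to members. Blood endothelium held 2150, 1949 and 3958 Cxcl12 UMIs, among 1007985, 546694 and 1058317 UMIs in all, and fibroblasts held 1298, 355 and 980. The part of RNA from these cells in the members' Cxcl12 was not tested. Angpt2, a ligand of the endothelial receptor Tie2, had a fold change of 0.79 (SE 0.20), and lost its call with DESeq2 and without either PLV replicate (0.45 without PLV replicate 1). S1pr3, a receptor for sphingosine 1-phosphate, had one of -2.54 (SE 0.23), and Hey2, a Notch target of arterial and muscle cells, one of -1.65 (SE 0.26).

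Of 30 tested genes of G protein and cyclic nucleotide signalling, 4 passed as higher and 8 as lower with all members. Without PLV replicate 1 the counts were 4 and 5 of 29. With all members the shares were 13.3% and 26.7%, against 4.7% and 5.29% of all tested genes. Rgs16, a regulator of the same family as Rgs5, was at 609, 261 and 1019.9 CPM outside the gate, 48.2, 17.6 and 269.6 CPM inside, and 1.98, 4.22 and 45.4 CPM in muscle reference cells. Its fold change was 3.79 (SE 0.38). The mixed library was highest in each class. Adra2a, the alpha-2A adrenergic receptor, had a fold change of 2.90 (SE 0.28), and Ptgir, the prostacyclin receptor, one of 1.52 (SE 0.34), which lost its call with DESeq2 and without the mixed library. The lower genes included Rgs2 (-1.12, SE 0.18) and Adcy5 (-0.96, SE 0.18), an adenylyl cyclase.

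Ndufa4l2, listed with the label's markers but not used by the rule, is a relative of the cytochrome oxidase subunit Ndufa4 and is induced by low oxygen in many cells. It was at 324, 181 and 359 CPM outside the gate, 153, 159 and 159.5 CPM inside, and 93.6, 91.4 and 76.8 CPM in muscle reference cells (log2 fold change 1.01, SE 0.17, for all members). Ndufa4 itself had a fold change of -0.79 (SE 0.15). Of 17 tested genes of that list 1 was higher and 8 were lower for all members, and 1 and 11 outside the gate. The lower shares were 47.1% and 64.7%, against 5.29% and 9.27% of all tested genes. The higher share was 5.88% in both, against 4.7% and 5.45%. For all members the count of lower genes changed with the libraries used: it was 2 of 16 tested without PLV replicate 1, 1 of 17 without PLV replicate 2, 9 of 17 without the mixed library, and 3 of 17 with DESeq2. Outside the gate it was 8 to 10 with a library left out and 8 with DESeq2. Cox4i2, the isoform of subunit IV of cytochrome oxidase found in pericytes and lung, did not pass, with 52.4, 73.5 and 65.9 CPM in members against 67.4, 52.0 and 41.2 CPM. Outside the gate it was at 104, 80.4 and 185 CPM and did not pass either.

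Of 25 tested basement membrane genes and their receptors 3 were higher and 6 lower for all members, and 2 and 4 of 24 without PLV replicate 1. For all members these are 12% and 24%, against 4.7% and 5.29% of all tested genes. Sparc, a collagen-binding matrix protein, had a fold change of 1.02 (SE 0.14) and Nid1, which links laminin to collagen IV, one of 0.88 (SE 0.24). Nid1 lost its call with DESeq2 and without either PLV replicate (0.55 without PLV replicate 1). Fn1, fibronectin, had one of -1.35 (SE 0.23). Immediate early and heat shock genes, which respond to tissue dissociation, were lower in members for 16 of 40 tested genes and higher for 0. The lower share was 40%, against 5.29% of all tested genes. Without PLV replicate 1 the count of lower genes was 9. Outside the gate 14 were lower and 2, Klf6 and Myc, were higher. Those shares were 35% and 5%, against 9.27% and 5.45% of all tested genes. With DESeq2 9 were lower outside the gate and 0 higher, and with any single library left out 1 was higher.

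Over all genes, listed or not, the 10 with the largest folds among those past the threshold and higher in every library were Has2, Cyp26b1, Steap4, Ifi211, Dlk1, Agtr1a, Ifi207, Ifi47, Tnfrsf21 and Cyp4b1. Cyp26b1 degrades retinoic acid. It was at 143, 502 and 104 CPM outside the gate, 4.38, 0 and 15.7 CPM inside, and 0.495, 0 and 0.468 CPM in muscle reference cells. Dlk1, a membrane protein related to Notch ligands, was at 376, 181 and 614 CPM outside and 114, 106 and 103 CPM inside the gate, with 0, 12.7 and 2.81 CPM in muscle reference cells. Outside the gate the 10 largest folds included Iigp1, Ifi204 and Ifi207, and Ifi211 and Ifi47 were not among them. No fixed list held these genes, and they were not tested as a group. Iigp1, an interferon-induced GTPase, was at 635, 301 and 325 CPM outside the gate, 140.2, 44.1 and 76.4 CPM inside, and 8.91, 11.2 and 1.87 CPM in muscle reference cells. Has2, which makes hyaluronan and lost its call with DESeq2, had 0 UMIs in muscle reference cells and was at least 38.9-fold higher in members. Slc16a11, a transporter of the monocarboxylate family, had 0 UMIs in members and was at least 7.47-fold lower than in muscle reference cells. Ppargc1a, a coactivator that drives mitochondrial genes, was at least 4.59-fold lower.

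Markers of other cell types were summed by list. Blood endothelial markers stood at 2927, 3057 and 2358 CPM in members, 547, 377 and 439 CPM in muscle reference cells, and 32515 to 33312 CPM in blood endothelium of the PLV libraries. Of 5 tested genes of that list 3 passed as higher with all members: Fabp4, Cd36 and Plvap. That share is 60%, against 4.7% of all tested genes. The members' sum was mostly Fabp4, a carrier of fatty acids, at 3359, 4843 and 3825 CPM outside the gate and 1336, 987 and 1179.6 CPM inside. Fabp4 in members was 11.3%, 16% and 9.10% of its level in blood endothelium, and Cd36, a fatty acid receptor, 23.5%, 17.9% and 24.7%. Plvap, a protein of endothelial diaphragms, was at 2.00%, 0.41% and 1.66%, and lost its call with DESeq2. Outside the gate 2 of 4 tested genes of the list passed as higher (50%, against 5.45% of all tested genes). Pecam1 in members was 0.97%, 0.79% and 0.26% of the endothelial level, and Cdh5 0.64%, 0% and 0%. Outside the gate Fabp4 was at 20.5%, 35.8% and 21.6% and Cd36 at 43.8%, 26.1% and 38.7%. Pecam1 there was at 1.91%, 0% and 0% and Cdh5 at 2.54%, 0% and 0%. The part of endothelial RNA in these levels was not tested.

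Fibroblast markers summed to 6342, 4141 and 6764 CPM in members, against 2668, 2480 and 6026 CPM in muscle reference cells and 75287 to 135384 CPM in fibroblasts. Of 8 tested genes, 4 were higher with all members, led by Dpt with a fold change of 3.13 (SE 0.32). That share is 50%, against 4.7% of all tested genes. The count was 1 without PLV replicate 1, 1 without PLV replicate 2 and 6 without the mixed library. Outside the gate 0 of 7 passed, against 5.45% of all tested genes as higher and 9.27% as lower, and Dpt was too low to test there. That count also changed with the libraries: 4 of 6 passed as higher without the mixed library, 1 of 8 without PLV replicate 2, and 1 of 7 passed as lower without PLV replicate 1. Pdgfra, which the rule limits, was at 3.27, 0 and 1.88 CPM. Scn7a, listed with Schwann cell markers, was at 134, 116 and 82.8 CPM in members and 6.44, 8.43 and 15 CPM in muscle reference cells, and the fibroblasts held 259, 411 and 157 CPM. Leukocyte markers summed to at most 18.4 CPM in members and to 13.0, 60.3 and 11.6 CPM outside the gate. Lymphatic endothelial markers summed to at most 6.55 CPM. Red cell and platelet markers were at 934, 1145 and 151 CPM outside the gate and at 775, 112 and 140 CPM in muscle reference cells. Outside the gate 1 of 4 tested genes passed as higher (25%, against 5.45% of all tested genes). That count was 0 of 4 with DESeq2, 0 of 5 without PLV replicate 2 and 2 of 2 without PLV replicate 1. The part of fibroblast or blood cell RNA in the calls was not tested.

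The rule did not use the kind of library, so members of the mixed library could be compared with members of the PLV libraries. The test rests on 2 PLV sums against 1 mixed sum, and the lone mixed sum is assumed to vary like the PLV sums. With edgeR 1 of 6154 tested genes passed (0.0162%), and 808 had an unadjusted p under 0.05. The gene was Xist, the RNA that coats the inactive X chromosome, at 904, 790.2 and 0 CPM in members (adjusted p 0.0305). It was also near 0 in the muscle, endothelial and fibroblast references of the mixed library, with at most 1 UMI per class, against 324 CPM or more in the same classes of the PLV libraries. A difference in the sex of the mice between library kinds was not stated in the labels used here and cannot be told apart from the others. DESeq2 called 12 genes, and other settings of the same comparison called up to 256. These counts are not of 1 total, as DESeq2 tested 898 genes against 6154 with edgeR, and 1984 were tested outside the gate. The count thus depends on the processing and on the genes tested.

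Levels by library are therefore given without a test. The mixed library was above both PLV libraries for 24.3% of the tested genes and below both for 47.4%. Among immediate early and heat shock genes it was above both for 26 of 40 and below both for 7. Atf3, a transcription factor induced by stress, was at 504, 251 and 1468 CPM in members and at 1162, 468 and 2354 CPM in muscle reference cells. Hspa1a, an inducible heat shock protein, was at 239, 178 and 691 CPM in members and 287, 159 and 1290.0 CPM in muscle reference cells. Both genes were highest in the mixed library in both classes. Among pericyte genes outside the rule the mixed library was above both PLV libraries for 3 of 28 and below both for 21. Steap4 in members went from 282 and 435 CPM to 196 CPM, and Rgs5, which the rule used, from 3860.2 and 4208 CPM to 2125 CPM. The share of members inside the gate was highest in the mixed library at the same time, at 75% against 54.5% and 56.0%, and its part in these levels was not tested.

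**Figure D4:**
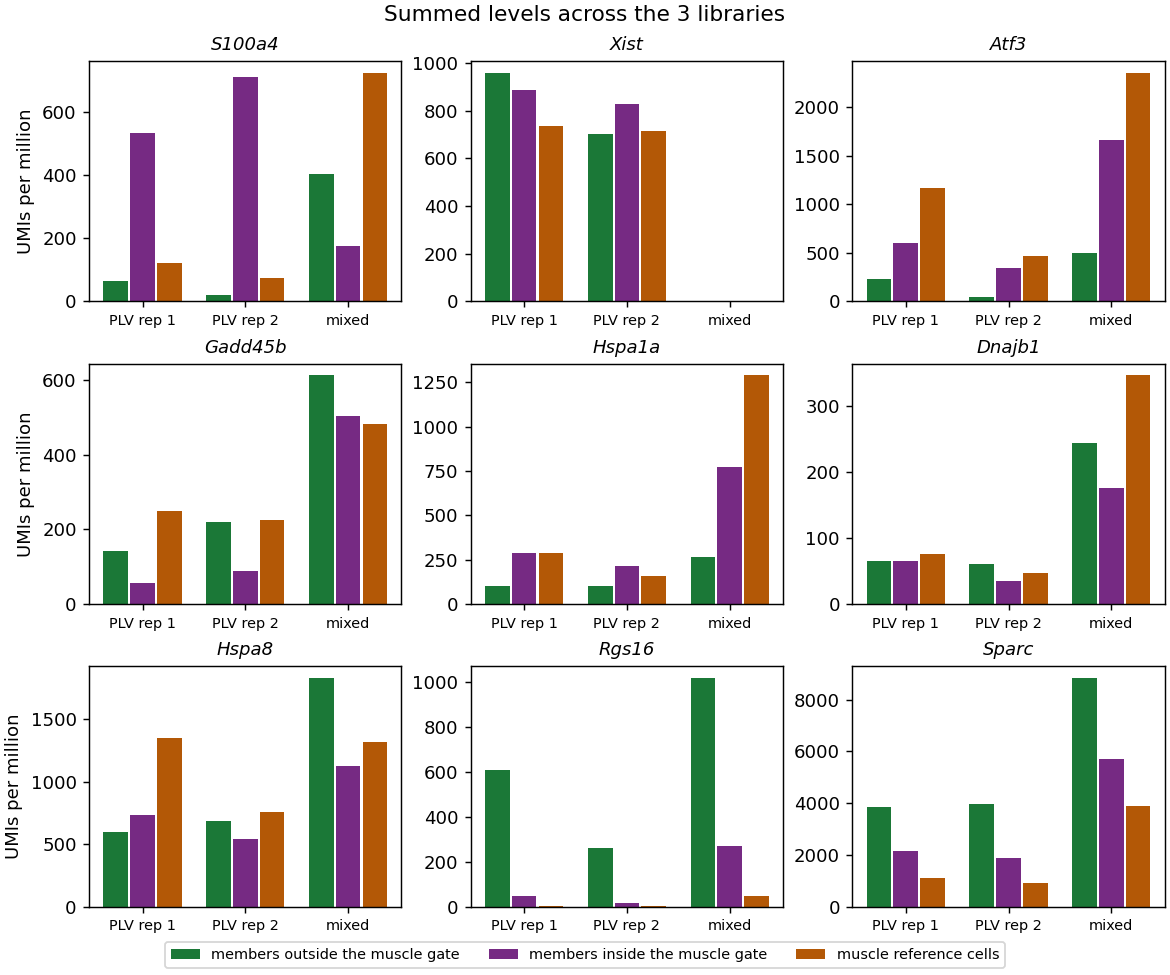
Summed levels (y axis, CPM, from 0) of 9 genes in each library, 1 bar per class: members outside the muscle gate (green), inside it (purple) and muscle reference cells (orange). Xist is absent from the mixed library in both sets of members, Atf3, Hspa1a and Dnajb1 are highest in the mixed library in every class, and S100a4 is higher in muscle reference cells than in members inside the gate only in the mixed library.

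Whether such differences were particular to members was asked with the interaction of class and library kind. With edgeR 1 of 9124 genes passed (0.011%), with 491 at an unadjusted p under 0.05, and DESeq2 also called 1. The gene was S100a4, a calcium-binding protein of motile cells. In members it was at 416, 502 and 213 CPM and in muscle reference cells at 122, 74.5 and 727 CPM, so members were above the reference in both PLV libraries and below it in the mixed one (interaction -3.92 on the log2 scale, SE 0.34, adjusted p 5.72e-08). The mixed side of this contrast is 1 library, so the SE and p rest on the spread of the PLV pools, and other settings called 1 to 42 genes. Few cells carried it. In PLV replicate 1 14 of 55 members had an S100a4 UMI and 1 cell held 50 of the 127 UMIs, and in PLV replicate 2 7 of 25 had one and 1 cell held 55 of 82. In the mixed library 15 of 68 had one and 1 cell held 33 of 113. Without the UMIs of those cells, and with the totals kept, the levels would be 252, 165 and 151 CPM. Outside the gate the interaction was 0.36 (SE 0.73) and did not pass, on 5, 1 and 35 UMIs, of which 1 cell of the mixed library held 33.

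The reporter was read last. tdTomato in members was at 45.8 CPM (95% Poisson interval 25.1 to 76.9), 147 CPM (94.2 to 219) and 132 CPM (103 to 166). Muscle reference cells held 43.6, 91.4 and 133 CPM, within or just below these intervals. Blood endothelium held 37.7, 49.4 and 124 CPM and fibroblasts 28.4, 28.4 and 49.3 CPM. Leukocytes held 0, 16 and 60.1 CPM, and near-empty droplets of the mixed library 59.0 CPM. A tdTomato UMI was found in 10 of 55, 15 of 25 and 32 of 68 members, and after thinning to 1500 UMIs in 8%, 12.5% and 25.8%. After the same thinning 5.79%, 10.6% and 18.1% of muscle reference cells had 1. In blood endothelium the thinned shares were 8.15%, 8.47% and 13.1%. Wt1, whose promoter drives the Cre, had 0 UMIs in members and in muscle reference cells, so it was not detectable at this depth.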

How the data were processed

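Single cells were captured with a 10x Genomics 3′ kit, per the labels' protocols. The deposited matrices hold raw UMI counts. Cell Ranger 6.1.2 made the PLV matrices (filtered barcodes) and version 4 the mixed one (all 896360 barcodes), per the file headers. The submitters' processing notes also name Seurat and the build GRCm38. The members and lists were chosen with earlier results of these data known.

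Barcodes were kept with at least 500 UMIs, 300 genes, at most 15% mitochondrial and 20% haemoglobin UMIs. UMIs were summed per library and class and tested with edgeR 4.0.16 (quasi-likelihood, TMM, filterByExpr, Benjamini-Hochberg at 0.05), DESeq2 1.42.0 being an alternative. The 16 genes of the member rule and muscle gate stayed in the fit and were never counted as called. Reference endothelium, fibroblasts and leukocytes were chosen by like gates for levels only. Named genes were those in the 16 fixed lists (367 genes) with at least 10 UMIs in members, the 10 largest folds per direction with the same sign in every library, tdTomato, Wt1 and Xist. The test was checked on simulated counts, but the outcome is not given here and no result rests on it. Intervals (95%) and floors of 3 counts cover counting error only. Doublets were predicted with scrublet and kept. PLV replicates were separate pools of 2 mice. With the library as a block, p-values for members against muscle reference cells measure how that difference varies over the 3 libraries, the mixed one included. In the comparison of library kinds and the interaction, p-values rest on the spread between the PLV pools.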

Additional observations from a re-analysis of the deposited data

Results flagged for a closer look

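S100a4 was noted because its difference between members and muscle reference cells itself differed between the kinds of library. The log2 difference, mixed minus PLV, of members over muscle reference cells was -3.92. Under the other settings that kept members inside the muscle gate, some with fewer cells, it was between -4.24 (at least 5 Rgs5 UMIs) and -3.92, with DESeq2 at -3.99. Outside the muscle gate it was 0.36. The mixed side is 1 library. Single cells held a large share of the members' counts: 50 of 127 UMIs, 55 of 82 and 33 of 113. Without the UMIs of those cells, and with the totals kept, the members would stand at 252, 165 and 151 CPM against 416, 502 and 213; the interaction was not refitted without them.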

How the results depend on the processing

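The calls between members and muscle reference cells (810) were within 1.5 times that number under 7 alternatives on cells, scaling or filter, including members outside the gate. They fell to 440 with DESeq2, 178 with no library block, and 475 to 637 when each library was left out in turn (475 without PLV replicate 1). Of 139 called genes that are listed or named, 139 were called with RLE size factors, 98 with DESeq2 and 34 with no library block, and 0 changed sign under any of these. The comparison of the mixed with the PLV libraries tested 6154 genes, or 898 with DESeq2 and 13456 with no filter on low counts. It tested 1984 outside the gate and 1911 after thinning to 1500 UMIs. The comparison depended on every setting except the doublet filter, which took out no member and so could not change it. Against 1 call, it gave 210 with at least 1000 UMIs, 228 at 10% mitochondrial UMIs, 20 outside the gate (0 there with DESeq2, with 19 at an unadjusted p under 0.05), 114 with at least 5 Rgs5 UMIs, 12 with DESeq2, 256 with RLE size factors, 140 with no filter on low counts and 26 after thinning to 1500 UMIs; the cause was not tested. For the interaction, 29 genes passed at 10% mitochondrial UMIs, 7 outside the gate, 42 with at least 5 Rgs5 UMIs, 20 without predicted doublets, 5 with RLE size factors and 22 with no filter, against 1; S100a4 was 0.36 (SE 0.73) outside the gate, where it did not pass. Leaving out a PLV replicate leaves these fits no spread to estimate and was not run. The block is the library, which pairs members with muscle reference cells of the same library. The labels link no PLV pool to the mixed pool, so library kinds were not paired. Settings for the cells outside the gate alone were chosen after seeing the data and gave 745 to 799 calls without 1 library, 574 with DESeq2 and 1016 with RLE size factors, against 1002.

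Depth limits the shares. After thinning, members were 1.44%, 1.73% and 1.58% of cells, 36.0%, 29.2% and 43.9% of members passed the muscle gate, and 8%, 12.5% and 25.8% had a tdTomato UMI. At 5 Rgs5 UMIs members were 4.81% of the mixed library.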
